A study of Mus musculus with 24 samples.

Results

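The genes of the translation initiation and elongation factors were followed in mouse pancreas through acute pancreatitis. A gene was taken where its name in the deposited table, ignoring case, begins with EIF1 to EIF6, EEF1 or EEF2, leaving out Eif2s3x, Eif2s3y and names marked as pseudogenes. The rule matched 72 names, of which 6 were left out, so that 66 of the 36806 genes in the table are described. The study used C57BL mice that carried 1 functional Nr5a2 allele (genotype +/-, called HET here) or both (genotype +/+, WT). Nr5a2 encodes a nuclear receptor of pancreatic acinar cells, which make the digestive enzymes. Each genotype was sampled after saline, and 8 h, 24 h and 48 h after the first of 7 hourly intraperitoneal injections of caerulein at 50 µg/kg. Caerulein is an analog of cholecystokinin, and repeated doses cause a mild acute pancreatitis. The 8 groups are thus HET saline, WT saline, HET 8 h, WT 8 h, HET 24 h, WT 24 h, HET 48 h and WT 48 h, each of 3 animals with 1 poly(A) RNA library of whole pancreas per animal. The labels read here state neither sex and age nor how the mutant Nr5a2 allele was made.

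Translation of an mRNA begins when the cap-binding complex eIF4F (the cap-binding protein eIF4E, the scaffold eIF4G and the helicase eIF4A) recruits a small ribosomal subunit that carries eIF3, eIF1, eIF1A, eIF5 and the initiator tRNA bound to eIF2. The subunit scans to a start codon, eIF5 stimulates GTP hydrolysis by eIF2, and eIF2B reloads eIF2 with GTP. Stress kinases phosphorylate eIF2 and so slow eIF2B, while the 4E-binding proteins hold eIF4E away from eIF4G when mTORC1 signalling is low. The elongation factors eEF1A and eEF2 then deliver aminoacyl-tRNA and move the ribosome along the mRNA. Acinar cells are known for one of the highest rates of protein synthesis of any mammalian cell, and caerulein pancreatitis for a fall of that rate.

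Of the 66 genes, 62 reached at least 1 FPKM (the authors' unit, fragments relative to transcript length and library size) in at least 3 of the 24 libraries and were tested. The 4 that did not were Eif4e1b, an eIF4E relative listed at 0 in every library; Eif2c5, listed at 0 in all but 1 library; Eef1a2, the eEF1A form of muscle and neurons, at 0 to 0.484 FPKM; and Eif5a2, at 0.0399 to 0.607 FPKM. The rule is one of names, and some of its genes have other roles. The 5 names of the form EIF2C are the Argonaute genes Ago1 to Ago4 and Eif2c5, which act in small RNA silencing. Eif4a3 belongs to the exon junction complex, Eef1e1 encodes a scaffold of the tRNA synthetase complex, and Eif1ad is a relative of eIF1A. A second row is also named EEF2K (ENSMUSG00000073853) and has no symbol in the reference used for names. Processed copies of Eef1a1, Eif4a1, Eif1, the pair Eif1a and Eif1ax and other abundant members exist elsewhere in the genome, so their values may include or lose reads that fit more than 1 place.

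Nr5a2 itself had mean levels of 8.63, 2.04, 4.6 and 4.03 FPKM in HET and 10.7, 2.74, 5.52 and 5.45 FPKM in WT in saline and at 8, 24 and 48 h. The deposited values are FPKM, so the depth of the libraries is unknown, and a lower level in whole tissue can come from fewer cells of a type or from less RNA per cell, which cannot be told apart. The saline and 24 h libraries were made with one version of the library guide (10 PCR cycles) and the 8 h and 48 h libraries with the next (8 cycles). The third WT saline library is named in neither list. Treatment and guide cannot be told apart for 8 h against saline, whereas 48 h against 8 h, 24 h against saline and every HET against WT comparison lie within 1 guide, that library apart. The cell makeup of the tissue also differed between groups. The summed level of 5 acinar markers that had values in every group (Ctrl, Ptf1a, Rbpjl, Bhlha15 and Zg16) was 2651.5 to 3288.4 FPKM in HET at 24 h, against 11356 to 13137 FPKM in WT, and 71.8 to 3484.4 FPKM in HET at 48 h, against 12139 to 28843 FPKM in WT. The third HET 48 h library was the lowest of all. In saline that sum was 85166 to 173650 FPKM in HET and 100520 to 154100 FPKM in WT. By 8 h it was 15594 to 16884 FPKM in HET and 15058 to 25085 FPKM in WT. Cel, Cpa1, Pnlip and Cela2a, the other 4 of the 9 acinar markers, were listed at 0 in whole groups, saline among them. The summed level of 7 macrophage markers was 639 to 1010.5 FPKM in HET and 449 to 714 FPKM in WT at 24 h, and 636 to 1085.4 FPKM in HET and 215 to 698 FPKM in WT at 48 h. In saline the summed adipocyte markers were 126 to 376 FPKM in HET and 1.88 to 57.9 FPKM in WT. Saline macrophage sums were 166 to 376 and 55.5 to 136 FPKM, and fibroblast sums 229 to 412 and 147 to 179 FPKM. Islet sums went the other way, at 946 to 1412 FPKM in HET and 2663 to 5043 FPKM in WT. For the other cell type marker lists the genotypes overlapped in saline. The part of these differences in the results below was not tested.

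The main movement of these genes was a rise of many initiation factors at 8 h, followed by a fall from 8 h to 48 h. At 8 h against saline, 27 members rose and 11 fell in HET, where 55.2% of all genes tested were called, and 25 rose and 7 fell in WT, where 51.0% of all genes were called. A gene was called where the Benjamini-Hochberg adjusted p of limma's moderated test over all genes was under 0.05. Changes are differences in log2(FPKM + 1) ± standard error. The median change of the 62 members was 0.36 in HET and 0.33 in WT, against 0.01 and 0.05 for all genes tested. Called in both genotypes were 23 risers and 7 fallers, and no member went opposite ways. Of these 8 h calls, those of Ago1, Eef1b2, Eif1ax, Eif2d, Eif3g and Eif3i in HET and of Eef2k, Eif3g, Eif3j, Eif4a3 and Eif4enif1 in WT ended when some single library was left out. With scaling that leaves out enzyme and Reg genes, the calls of Ago1, Eif1b, Eif2d, Eif3i and Eif4ebp2 in HET and of Ago1, Eef2k, Eif3g, Eif3j, Eif4enif1 and Eif4g1 in WT ended. The libraries of the compared groups did not overlap for 40 members in HET and 39 in WT at 8 h, against 59.4% and 56.2% of all genes, and for 50 and 39 at 48 h against 8 h, with 66.4% and 57.9% of all genes. At 48 h against 8 h, 5 members rose and 37 fell in HET (52.0% of all genes called) and 5 rose and 32 fell in WT (50.0% of all genes called), with median changes of -0.62 and -0.56, against -0.03 and 0.01 for all genes. The share of members called was 61.3% in HET and 51.6% in WT at 8 h, the WT share being near that of all genes, and 67.7% and 59.7% at 48 h. By direction, 30.7% of all genes rose and 24.5% fell in HET at 8 h, and 28.2% and 22.8% in WT. From 8 h to 48 h 23.4% rose and 28.6% fell in HET, and 22.5% and 27.4% in WT. At 24 h against saline the balance lay on the lower side, with 10 members higher and 18 lower in HET (43.8% of all genes called) and 5 higher and 18 lower in WT (39.2% of all genes called). Of all genes 23.9% were higher and 19.8% lower in HET, and 20.5% and 18.7% in WT. These directions at 24 h and 48 h are on the authors' scaling between libraries. Median-of-ratios scaling, set by the median ratio over genes expressed in every library, gave medians of all genes near these. They were 0.04 in HET and 0.08 in WT at 24 h, and 0.08 and 0.15 at 48 h against 8 h. It ended only the Ago4 call in WT at 24 h. From 8 h to 48 h it ended those of Eef1a1, Eef1d, Eif3i and Eif3m in HET and of Eif2d, Eif4e3 and Eif5b in WT. Scaling each library to its total without digestive enzyme and Reg genes lifted the median of all genes to 0.85 in HET and 0.69 in WT at 24 h against saline, and to 0.66 and 0.45 at 48 h against 8 h. The splits became 45 higher and 1 lower in HET and 35 and 1 in WT at 24 h, and 16 and 10 in HET and 20 and 16 in WT at 48 h. A scaling moves all genes of a library alike, so the place of a member relative to that median is nearly fixed by construction.

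**Figure D1:**
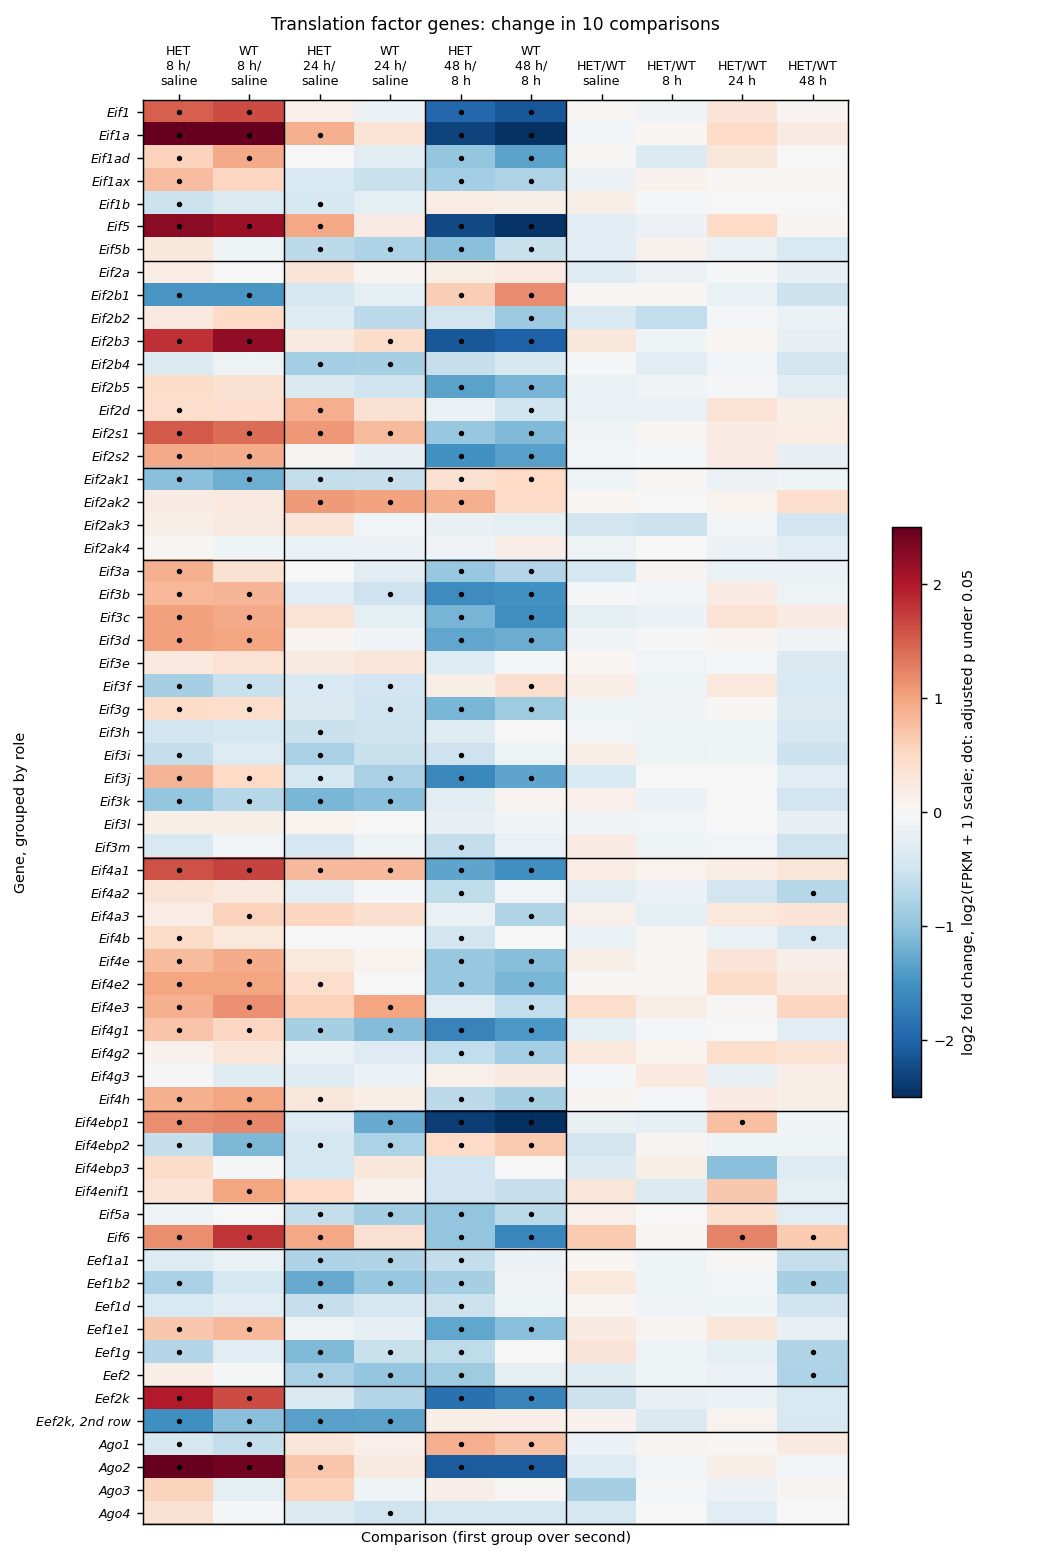
Log2 fold change (colour) of the 62 tested members (rows, grouped by role from scanning factors at the top to Argonaute genes at the bottom) in 10 comparisons (columns); a dot marks an adjusted p under 0.05. Most scanning and eIF4 rows are red in both 8 h columns and blue in both columns of 48 h against 8 h, while 2 members carry a dot for HET against WT at 24 h and 6 at 48 h. Of the 18 members lower at 24 h against saline in each genotype, 16 in HET and 11 in WT turn positive when libraries are scaled without enzyme and Reg genes.

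The scanning and start-codon factors had the highest median change of the role groups at 8 h in both genotypes. Of 7 tested, 5 rose and 1 fell at 8 h in HET and 4 rose in WT, with a median change of 0.77 and 0.94, and 6 fell at 48 h against 8 h in each genotype. Scaled without enzyme and Reg genes, the falls of Eif1, Eif1a and Eif5 stayed called in both genotypes and that of Eif1ad in WT, and the others ended. Eif1a, one of the mouse genes for eIF1A, which opens the small subunit for scanning, was at 10.5, 9.8 and 8.73 FPKM in saline, 80.1, 72.2 and 69.1 at 8 h, 23.1, 16.6 and 17.3 at 24 h and 14.9, 14.4 and 12.6 at 48 h in HET. Its WT level was 11.6, 7.33 and 12.1 FPKM in saline, 74.9, 61 and 78.6 at 8 h, 13.2, 13 and 13.2 at 24 h and 13.3, 11 and 11.7 at 48 h. No 8 h library overlapped any other group. The 8 h change was 2.81 ± 0.16 in HET (adjusted p = 3.08e-11) and 2.70 ± 0.16 in WT (adjusted p = 5.68e-11), the smallest p of any member in both. Eif5, the GTPase activator of eIF2, was at 39.9, 31.8 and 41.3 FPKM in saline, 191, 179 and 177 at 8 h, 86.1, 73.2 and 64.3 at 24 h and 43.3, 35.4 and 34.6 at 48 h in HET. The WT libraries had 50.1, 37.6 and 48.9 FPKM in saline, 202, 178 and 226 at 8 h, 42.7, 51.6 and 64.4 at 24 h and 40.8, 30.5 and 36.8 at 48 h. It rose by 2.25 ± 0.17 in HET and 2.13 ± 0.17 in WT at 8 h, and was still above saline at 24 h in HET (0.96 ± 0.17, adjusted p = 1.30e-04), with 0.20 ± 0.17 and adjusted p = 0.359 in WT. Eif1, which guards the choice of start codon, was at 219, 143 and 171 FPKM in saline, 514, 484 and 488 at 8 h, 234, 174 and 172 at 24 h and 142, 126 and 114 at 48 h in HET. Its WT values were 166, 178 and 168 FPKM in saline, 483, 535 and 575 at 8 h, 149, 142 and 170 at 24 h and 117, 119 and 128 at 48 h. The 8 h values were again apart from the rest, with changes of 1.50 ± 0.15 in HET and 1.63 ± 0.15 in WT. At 24 h neither genotype was called. Eif1ad rose in both genotypes, and Eif1ax, the X-linked eIF1A gene, in HET (0.77 ± 0.25), with 0.52 ± 0.25 and adjusted p = 0.0866 in WT. Eif1b, a close relative of Eif1, fell in HET (-0.54 ± 0.15) with overlapping ranges. Eif5b, which joins the ribosomal subunits, was not called at 8 h and fell in both genotypes at 24 h against saline (-0.66 ± 0.18 in HET and -0.78 ± 0.18 in WT), changes that turned to 0.38 and 0.084 with scaling that leaves out enzyme and Reg genes.

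**Figure D2:**
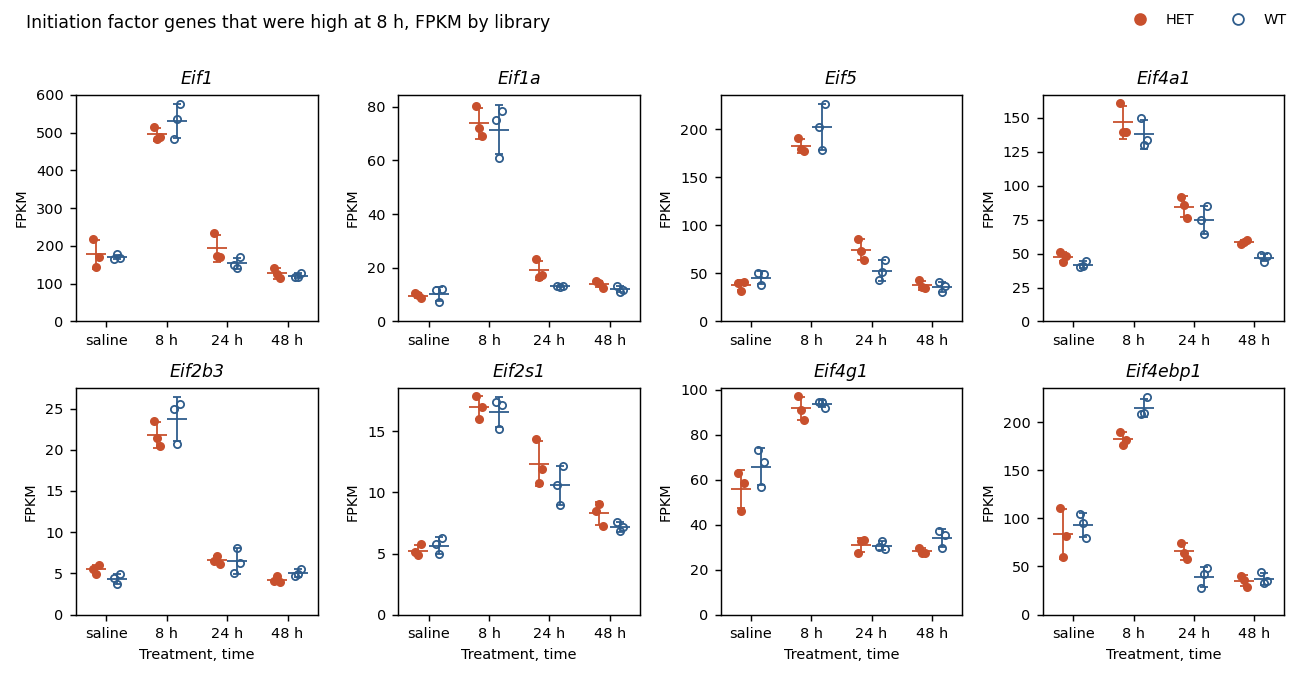
FPKM (linear axis from 0) of 8 initiation factor genes in saline and at 8, 24 and 48 h. Each point is 1 animal (filled HET, open WT), with the group mean and SD as bars. All 8 genes are highest at 8 h in both genotypes, and Eif4g1 lies below saline at 24 h on this scale. With libraries scaled without enzyme and Reg genes, its HET change at 24 h turns positive but is not called and lies below the median of all genes.

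Promoter sequence of 2 of these genes is shown because both scanning genes rose and both have an entry in the RefSeq promoter table (GRCm38.p6, 250 bases before to 50 after the start). The runs cover 25 bases on each side of the annotated start of Eif1 (chr11:100319924-100319973, plus strand) and Eif5 (chr12:111538076-111538125, plus strand), 5′ to 3′, with no capitals, since no pyrimidine run of at least 8 bases was found there.
Eif1: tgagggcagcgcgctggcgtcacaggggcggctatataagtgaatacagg
Eif5: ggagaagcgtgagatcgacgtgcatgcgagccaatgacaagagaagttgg

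Among the eIF2 and eIF2B genes, the subunits did not move as a block. Of 9 tested, 4 rose and 1 fell at 8 h in HET, and 3 rose and 1 fell in WT. Eif2s1, the eIF2α subunit that stress kinases phosphorylate, was at 5.11, 4.86 and 5.76 FPKM in saline, 17.9, 16 and 17 at 8 h, 14.4, 10.8 and 11.9 at 24 h and 8.48, 9.09 and 7.29 at 48 h in HET. In WT pancreas the values were 5.77, 4.93 and 6.27 FPKM in saline, 17.4, 15.2 and 17.2 at 8 h, 10.6, 8.94 and 12.2 at 24 h and 7.56, 6.81 and 7.15 at 48 h. It rose by 1.53 ± 0.13 in HET and 1.41 ± 0.13 in WT at 8 h and was still higher than saline at 24 h, by 1.09 ± 0.13 (adjusted p = 1.74e-06) and 0.79 ± 0.13 (adjusted p = 8.10e-05). Eif2s2, the β subunit, rose by 0.95 ± 0.18 and 0.94 ± 0.18 at 8 h and was not called at 24 h.

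The eIF2B genes split. Eif2b3, the γ subunit of the catalytic part of eIF2B, was at 5.54, 4.88 and 6.02 FPKM in saline, 23.5, 21.4 and 20.5 at 8 h, 6.48, 7.16 and 6.17 at 24 h and 4.12, 4.65 and 3.98 at 48 h in HET. The WT libraries were at 4.39, 3.71 and 4.92 FPKM in saline, 25, 20.7 and 25.5 at 8 h, 4.98, 8.11 and 6.23 at 24 h and 4.66, 4.9 and 5.57 at 48 h. All 6 of its 8 h libraries were above every other library, with changes of 1.82 ± 0.14 in HET and 2.21 ± 0.14 in WT. Eif2b1, the regulatory α subunit, went the other way, at 21, 13.1 and 13.9 FPKM in saline, 6.87, 4.89 and 3.8 at 8 h, 14.1, 11.4 and 8.76 at 24 h and 10.2, 8.02 and 6.95 at 48 h in HET. Its WT libraries had 17.5, 16.5 and 12.3 FPKM in saline, 3.77, 4.53 and 6.79 at 8 h, 12.3, 13.2 and 12.8 at 24 h and 15.3, 10.8 and 11.6 at 48 h. It fell by 1.46 ± 0.23 in HET (adjusted p = 2.05e-05) and 1.46 ± 0.23 in WT (adjusted p = 2.18e-05), with the 8 h values below all others, and rose again by 0.62 ± 0.23 in HET and 1.19 ± 0.23 in WT at 48 h against 8 h. The call of this HET rise ended when any of 4 of the 6 libraries was left out, and with no filter (adjusted p up to 0.146). The WT call held in every alternative. Eif2b5, the catalytic ε subunit, was at 37.6, 14.9 and 17.9 FPKM in saline, 31.7, 29.6 and 29.2 at 8 h, 15.8, 19.4 and 15.2 at 24 h and 12.9, 12 and 9.17 at 48 h in HET. WT values were 24, 24.1 and 25.6 FPKM in saline, 28.5, 33.7 and 34.7 at 8 h, 18.1, 14.3 and 19.1 at 24 h and 13.7, 12.2 and 15.5 at 48 h. Its 8 h change was not called (0.46 ± 0.22, adjusted p = 0.0890 in HET and 0.38 ± 0.22, adjusted p = 0.174 in WT), but it fell at 48 h against 8 h in both. The HET fall was not called under scaling without enzyme genes (adjusted p = 0.0868). Eif2b4, the δ subunit, fell at 24 h against saline in both genotypes (-0.85 ± 0.26 in HET, -0.84 ± 0.26 in WT), which turned to 0.24 and 0.054 without enzyme genes in the scaling. Eif2b2, the β subunit, was called in WT at 48 h against 8 h (-0.92 ± 0.26), a call that ended under scaling without enzyme genes. Eif2d, which can load tRNA without eIF2, was at 9.91, 7.1 and 8.55 FPKM in saline, 11.4, 11.4 and 12.5 at 8 h, 18.4, 16.1 and 15.9 at 24 h and 10.8, 9.53 and 10.7 at 48 h in HET. WT tissue had 8.5, 11.9 and 8.7 FPKM in saline, 10.9, 14.7 and 14.5 at 8 h, 9.66, 11.7 and 18.5 at 24 h and 9.47, 8.7 and 8.98 at 48 h. It rose at 24 h in HET (0.91 ± 0.18), with 0.38 ± 0.18 and adjusted p = 0.0975 in WT. Eif2a was called in no comparison. The run below surrounds the annotated start of Eif2s1 (GRCm38.p6, chr12:78862028-78862079, plus strand) and is shown because Eif2s1 stayed high at 24 h. The capitals mark GCATGCGC, a core letter string of the factor NRF1, searched on both strands and held by 7.46% of the 67 member promoters and 2.71% of all 32851 promoters.
Eif2s1: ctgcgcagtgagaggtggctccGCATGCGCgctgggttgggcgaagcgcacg

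The 4 kinases of eIF2 answer different stresses. Eif2ak3 (PERK), which senses unfolded protein in the endoplasmic reticulum and is abundant in pancreas, had the highest level of the 4, at 22, 18.1 and 25.4 FPKM in saline, 28.3, 20.1 and 24.7 at 8 h, 24.6, 29.5 and 27.9 at 24 h and 28.3, 21.8 and 15.2 at 48 h in HET. WT libraries had 27, 27.9 and 36.3 FPKM in saline, 33.7, 35.4 and 37.8 at 8 h, 21.5, 36.1 and 30.2 at 24 h and 39.6, 22.1 and 30.8 at 48 h. The groups overlapped over time in both genotypes. Neither Eif2ak3 nor Eif2ak4 (GCN2, the sensor of uncharged tRNA) was called in any comparison. The 8 h change of Eif2ak3 was 0.15 ± 0.23 in HET (adjusted p = 0.603) and 0.23 ± 0.23 in WT (adjusted p = 0.423). Eif2ak1 (HRI, known from heme and mitochondrial stress) was at 7.78, 6.1 and 6.15 FPKM in saline, 2.35, 3.01 and 2.71 at 8 h, 3.95, 4.06 and 4.22 at 24 h and 3.6, 3.78 and 4 at 48 h in HET. The WT series was 6.38, 7.79 and 8.01 FPKM in saline, 2.68, 2.62 and 2.54 at 8 h, 4.83, 4.64 and 4.37 at 24 h and 4.39, 4.13 and 3.88 at 48 h. Saline was above every treated library. The change at 8 h was -1.05 ± 0.11 in HET and -1.21 ± 0.11 in WT, the smallest p among the fallers of each genotype. Eif2ak2 (PKR, an interferon-induced sensor of double-stranded RNA) was at 0.663, 1.72 and 0.964 FPKM in saline, 1.78, 1.11 and 1.34 at 8 h, 3.62, 3.03 and 3.28 at 24 h and 2.91, 3.22 and 4.18 at 48 h in HET. Its WT values were 1.33, 0.972 and 0.744 FPKM in saline, 1.66, 1.76 and 0.804 at 8 h, 4.16, 2.07 and 3.15 at 24 h and 2.24, 2.79 and 1.88 at 48 h. It was not called at 8 h and rose at 24 h against saline by 1.05 ± 0.21 in HET and 1.01 ± 0.21 in WT. The run below begins just before the annotated start of Eif2ak2 (GRCm38.p6, chr17:78882543-78882576, minus strand) and is shown because Eif2ak2 is the textbook interferon-induced member. The capitals mark an interferon-stimulated response element, read here as GAAA, any pair of bases and GAAA, searched on both strands and held by 4.48% of member promoters and 3.44% of all promoters.
Eif2ak2: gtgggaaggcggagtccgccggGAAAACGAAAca

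Most eIF4 genes rose at 8 h, among them those of the main cap-binding protein, scaffold and helicase. Of the 11 eIF4 genes tested, 7 rose in each genotype and none fell, with median changes of 0.71 in HET and 0.58 in WT, and 8 fell at 48 h against 8 h in each. Of those falls, scaling without enzyme and Reg genes left only Eif4g1 called in HET, and only Eif4a1 and Eif4g1 in WT. Eif4a1, the main eIF4A helicase, was at 51, 44.1 and 48.3 FPKM in saline, 161, 140 and 140 at 8 h, 91.8, 85.5 and 76.4 at 24 h and 56.8, 58.5 and 59.9 at 48 h in HET. WT animals had 40.1, 40.6 and 44.8 FPKM in saline, 150, 130 and 134 at 8 h, 74.8, 64.7 and 84.8 at 24 h and 48.7, 43.9 and 48.1 at 48 h. All 6 libraries of 8 h were above all others, and the 24 h libraries were next. The 8 h changes were 1.60 ± 0.11 and 1.70 ± 0.11. Eif4e, the cap-binding protein, was at 8.36, 7.76 and 7.56 FPKM in saline, 14.4, 14.5 and 14.4 at 8 h, 10.8, 9.74 and 8.63 at 24 h and 6.66, 7.58 and 6.84 at 48 h in HET. WT had 9.54, 5.44 and 6.49 FPKM in saline, 13.9, 12.5 and 16.1 at 8 h, 8.22, 7.02 and 7.4 at 24 h and 6.57, 5.97 and 6.25 at 48 h. It rose by 0.80 ± 0.14 in HET (adjusted p = 8.01e-05) and 0.92 ± 0.14 in WT (adjusted p = 1.79e-05) at 8 h and was not called at 24 h. Eif4g1, the scaffold, was at 62.9, 46.3 and 58.5 FPKM in saline, 97.4, 91 and 86.8 at 8 h, 27.4, 32.7 and 33.1 at 24 h and 29.6, 27.5 and 27.6 at 48 h in HET. The WT libraries were at 73.1, 56.6 and 68 FPKM in saline, 94.8, 94.6 and 92.1 at 8 h, 30, 32.9 and 29 at 24 h and 37.2, 29.6 and 35.4 at 48 h. It rose at 8 h (0.71 ± 0.13 in HET, 0.51 ± 0.13 in WT), the WT call ending under scaling without enzyme genes (adjusted p = 0.0825). It fell below saline at 24 h (-0.82 ± 0.13 and -1.07 ± 0.13), when Eif4a1 was above its own saline level; on the scaling without enzyme genes that change turned to 0.32 in HET, where the median of all genes was 0.85. The helicase cofactor Eif4h and the cap-binding relatives Eif4e2 and Eif4e3 rose in both genotypes at 8 h, and Eif4a3 in WT, a call that ended when any of 3 libraries was left out. Eif4b, the other helicase cofactor, rose in HET (0.46 ± 0.13), where it was at 48.8, 42.6 and 43.6 FPKM in saline, 65.7, 60.3 and 61.2 at 8 h, 46.3, 47.7 and 39.5 at 24 h and 53.4, 40.8 and 42.9 at 48 h. WT mice had 48.6, 52.5 and 50.4 FPKM in saline, 61.1, 60.2 and 61.5 at 8 h, 44.1, 53.1 and 53.3 at 24 h and 68.7, 51.3 and 64.6 at 48 h, with no call at 8 h (0.27 ± 0.13, adjusted p = 0.0874). Eif4e3 was at 0.524, 2.39 and 1.22 FPKM in saline, 2.84, 2.8 and 3.98 at 8 h, 2.37, 2.32 and 2.45 at 24 h and 1.98, 2.79 and 2.72 at 48 h in HET. For WT it was 0.333, 0.951 and 0.8 FPKM in saline, 3.22, 3.22 and 1.84 at 8 h, 3.09, 2.2 and 1.81 at 24 h and 0.945, 2.24 and 1.2 at 48 h. It was above saline at 24 h in WT (0.99 ± 0.25), with 0.58 ± 0.25 and adjusted p = 0.0684 in HET. Eif4g2 and Eif4g3, relatives of the scaffold, were not called at 8 h. The row named EIF4E3 carries an identifier that the reference names Gm20696.

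Eif4a2, the second eIF4A helicase, was not called at 8 h. HET pancreas had 81.9, 55.1 and 55.5 FPKM in saline, 81.8, 75.5 and 85 at 8 h, 58.2, 48.6 and 49.3 at 24 h and 60.3, 44.3 and 51.7 at 48 h. WT pancreas had 74.1, 70.3 and 83.6 FPKM in saline, 95.4, 98.2 and 77.7 at 8 h, 71.6, 64.2 and 85 at 24 h and 91.9, 71.8 and 95.5 at 48 h. In HET the saline libraries overlapped those of 8 h and of 24 h. No call was made at 8 h or 24 h against saline in either genotype. The ratio of Eif4a1 to Eif4a2 within a library does not depend on scaling between libraries, and it was chosen for description after these values were seen. In HET it was 0.623, 0.8 and 0.87 in saline, 1.97, 1.85 and 1.65 at 8 h, 1.58, 1.76 and 1.55 at 24 h and 0.942, 1.32 and 1.16 at 48 h. In WT it was 0.541, 0.578 and 0.536 in saline, 1.57, 1.32 and 1.73 at 8 h, 1.04, 1.01 and 0.998 at 24 h and 0.53, 0.611 and 0.504 at 48 h. The HET ratio lay above the WT ratio in every library in saline, at 24 h and at 48 h, and the genotypes overlapped at 8 h.

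Of the 4E-binding proteins, Eif4ebp1 (4E-BP1), an mTORC1 target that is high in pancreas, was at 111, 59.6 and 81.5 FPKM in saline, 190, 176 and 182 at 8 h, 74.9, 64.5 and 57.6 at 24 h and 40.4, 36 and 29 at 48 h in HET. In the WT groups it had 105, 95.2 and 79.3 FPKM in saline, 209, 210 and 226 at 8 h, 27.5, 42.1 and 48 at 24 h and 44.6, 32.4 and 34.9 at 48 h. It rose by 1.16 ± 0.21 in HET and 1.21 ± 0.21 in WT at 8 h and fell by 2.36 ± 0.21 and 2.51 ± 0.21 by 48 h. Eif4ebp2, its relative, ran the other way, at 9.56, 13.6 and 14.8 FPKM in saline, 8.04, 7.95 and 7.66 at 8 h, 7.45, 9.76 and 9.83 at 24 h and 10.8, 10.4 and 13.1 at 48 h in HET. Its WT values were 14.7, 18.8 and 19.6 FPKM in saline, 7.62, 7.87 and 7.04 at 8 h, 9.49, 10.3 and 9.58 at 24 h and 11.9, 12.7 and 12.4 at 48 h. It fell by 0.60 ± 0.14 in HET and 1.13 ± 0.14 in WT at 8 h and rose from then to 48 h by 0.48 ± 0.14 and 0.65 ± 0.14. Eif4enif1 (4E-T, the carrier of eIF4E into the nucleus and P-bodies) was called in WT at 8 h alone (0.98 ± 0.35), a call that ended when any of 5 of the 6 libraries was left out. Eif4ebp3 was called nowhere.

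Promoter windows of 4 eIF4 genes that rose at 8 h in both genotypes are shown because all 4 hold CACGTG, the E-box letters bound by MYC and its relatives, which are in capitals (GRCm38.p6, 5′ to 3′). They lie at chr3:138527182-138527231 on the plus strand (Eif4e), chr11:69672585-69672634 on the minus strand (Eif4a1), chr16:20672651-20672700 on the plus strand (Eif4g1) and chr5:134639478-134639527 on the minus strand (Eif4h).
Eif4e: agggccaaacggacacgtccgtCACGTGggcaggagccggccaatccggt
Eif4a1: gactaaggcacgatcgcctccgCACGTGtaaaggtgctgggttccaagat
Eif4g1: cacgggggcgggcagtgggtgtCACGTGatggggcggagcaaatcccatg
Eif4h: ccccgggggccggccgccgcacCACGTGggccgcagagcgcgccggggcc
The palindrome was searched once for both strands and was held by 14 of 67 member promoters (20.9%, from 12 of the 51 member genes with an entry) and by 7.15% of all 32851 promoters. Genes that did not rise at 8 h held it too, among them Eef2, Eif3f, Eif3k and Eif5a. A match describes the letters and not the binding of a factor.

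The subunits of eIF3, the complex that bridges the small subunit and eIF4G, moved in opposite directions at 8 h, and their levels lay closer together then. Of 13 subunit genes, 6 rose and 3 fell in HET, and 5 rose and 2 fell in WT. The risers were Eif3b, Eif3c, Eif3d, Eif3g and Eif3j in both genotypes, and Eif3a in HET. The Eif3g calls ended in each genotype when any of 4 of the 6 libraries was left out, and under median-of-ratios scaling. The Eif3j call in WT ended without the third saline library and under scaling without enzyme genes, and its ranges overlapped. Eif3b, a core subunit also found in yeast, had 68.4, 60.2 and 57.6 FPKM at 8 h and 39.8, 28.1 and 36.9 FPKM in saline in HET. In WT it had 63.7, 62.2 and 68.5 FPKM at 8 h and 38.4, 34.2 and 34.2 FPKM in saline. The changes were 0.82 ± 0.13 and 0.85 ± 0.13, with no overlap. Eif3d, which in human cells can bind the cap of some mRNAs, rose by 1.03 ± 0.14 and 0.98 ± 0.14. Eif3k, a peripheral subunit, was at 194, 127 and 133 FPKM in saline, 74.9, 75.9 and 74.7 at 8 h, 79.2, 67.2 and 54.8 at 24 h and 69, 67.5 and 52.7 at 48 h in HET. WT pancreas had 119, 158 and 135 FPKM in saline, 73.9, 84.2 and 91.7 at 8 h, 67.8, 60.2 and 69.5 at 24 h and 98.8, 73.6 and 93.9 at 48 h. It fell by 0.97 ± 0.17 in HET and 0.71 ± 0.17 in WT at 8 h and was below saline at 24 h, a change that turned to 0.0018 in HET without enzyme genes in the scaling. Eif3f, a peripheral subunit whose mRNA begins with a pyrimidine tract, was at 112, 117 and 91.5 FPKM in saline, 62.9, 51.9 and 62.8 at 8 h, 87.5, 89.9 and 68.8 at 24 h and 67.7, 67.6 and 60.9 at 48 h in HET. Its WT libraries had 93.6, 101 and 91.3 FPKM in saline, 57.2, 69.8 and 66.5 at 8 h, 67.8, 75.5 and 60.6 at 24 h and 95.3, 74.9 and 85.5 at 48 h. It fell by 0.84 ± 0.14 and 0.56 ± 0.14 at 8 h, where no library of 8 h reached the lowest of saline. Eif3i, another core subunit, fell in HET (-0.60 ± 0.22), with -0.32 ± 0.22 and adjusted p = 0.233 in WT. The HET call ended without the first saline or the second 8 h library and under scaling without enzyme genes. Eif3e, Eif3h, Eif3l and Eif3m were not called at 8 h.

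The 12 subunit genes other than Eif3j, whose product binds loosely, were compared within each library by the ratio of the highest to the lowest. That ratio in the 3 HET libraries of each group was 8.07, 5.4 and 4.67 in saline, 2.37, 2.86 and 2.58 at 8 h, 5.08, 3.44 and 3.68 at 24 h and 4.91, 4.51 and 4.12 at 48 h. The WT libraries had 6.31, 5.02 and 6.13 in saline, 2.58, 2.81 and 2.61 at 8 h, 4.76, 3.88 and 5.57 at 24 h and 5.12, 5.32 and 6.26 at 48 h. The lowest ratios were those of 8 h in both genotypes, and no 8 h library overlapped another time. At 48 h against 8 h, within 1 guide, the 6 risers named above fell in both genotypes on the authors' scaling. Scaled without enzyme genes, only the falls of Eif3b and Eif3j stayed called in HET, and those of Eif3b, Eif3c, Eif3d and Eif3j in WT. Change at 8 h and transcript length ranked weakly together over the 61 members with a length (Spearman's rho 0.225 in HET and 0.0934 in WT), as they did over all genes (0.237 and 0.139); genes share libraries and are not independent.

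**Figure D3:**
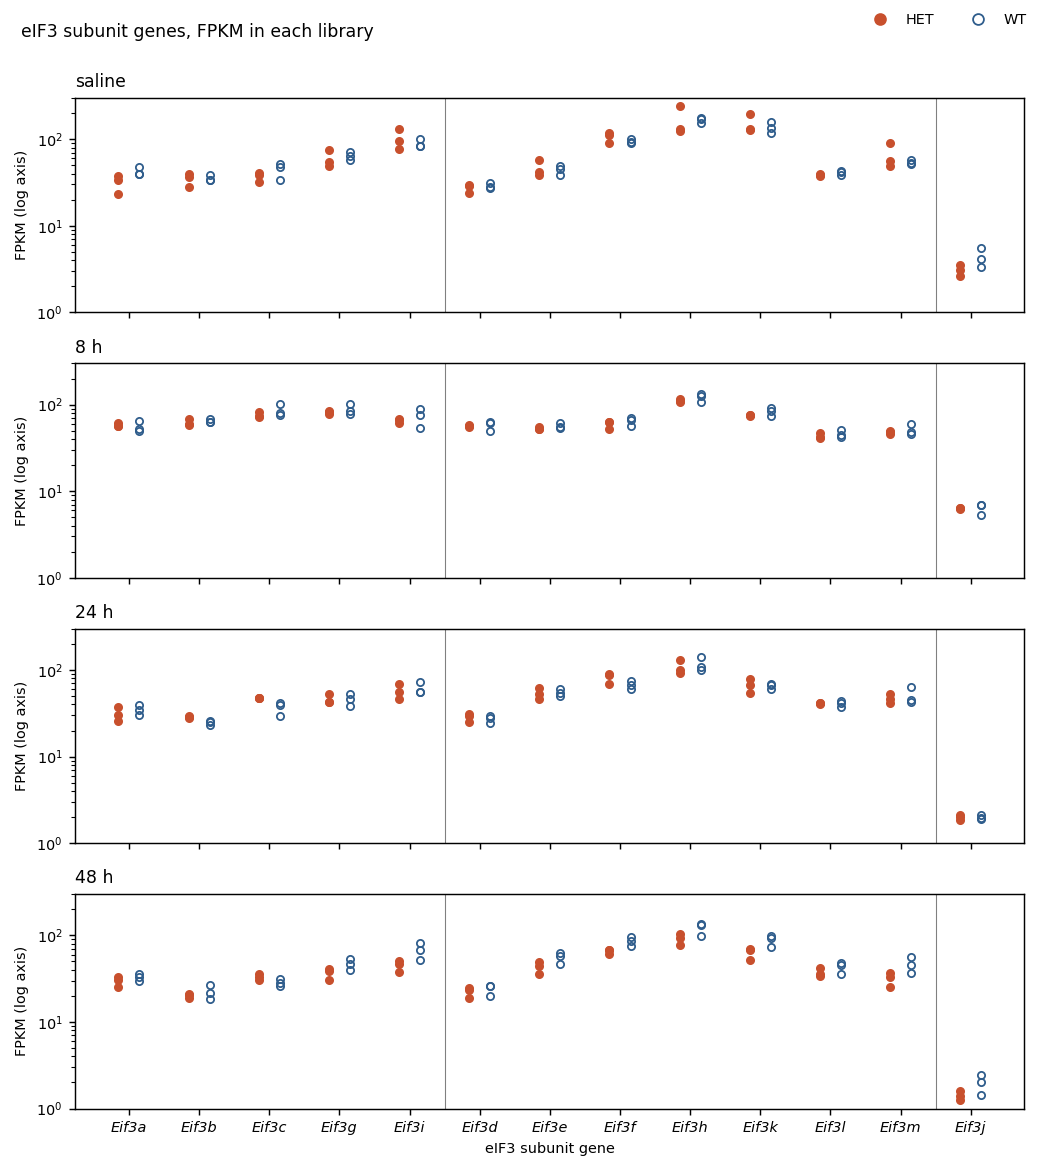
FPKM (log axis) of the 13 eIF3 subunit genes in each library, with a panel each for saline, 8 h, 24 h and 48 h and HET (filled) left of WT (open). Grey lines separate the subunits that yeast shares (left), those of mammals (middle) and Eif3j; the 12 left and middle genes lie within 2.86-fold of each other in every 8 h library and further apart in the other panels.

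Eif6, which keeps the large ribosomal subunit from joining too early and also acts in its maturation, was at 74, 37.7 and 58.7 FPKM in saline, 137, 130 and 106 at 8 h, 122, 101 and 102 at 24 h and 62.8, 66.6 and 56.1 at 48 h in HET. Its WT level was 37.6, 28.6 and 37.9 FPKM in saline, 115, 121 and 130 at 8 h, 35.5, 48.7 and 53.7 at 24 h and 46.4, 41.2 and 30.2 at 48 h. It rose at 8 h by 1.16 ± 0.21 in HET and 1.79 ± 0.21 in WT. At 24 h it was above saline in HET (0.97 ± 0.21, adjusted p = 0.00105), and was not called in WT (0.39 ± 0.21, adjusted p = 0.157). The difference between these 24 h responses was 0.58 ± 0.30 and not called (adjusted p = 0.326). Eif5a, the hypusine-bearing factor that helps the ribosome through hard peptide bonds, was at 250, 190 and 251 FPKM in saline, 225, 206 and 201 at 8 h, 174, 137 and 145 at 24 h and 108, 115 and 95.9 at 48 h in HET. The WT values were 225, 232 and 173 FPKM in saline, 190, 198 and 238 at 8 h, 104, 117 and 122 at 24 h and 153, 107 and 134 at 48 h. It was not called at 8 h (-0.12 ± 0.16 in HET, 0.00 ± 0.16 in WT) and fell at 24 h against saline by 0.59 ± 0.16 and 0.86 ± 0.16; on the scaling without enzyme genes these turned to 0.57 and 0.08, both below the median of all genes.

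The elongation factor genes mostly did not rise at 8 h and were lower at 24 h on the authors' scaling. Of 6 tested, 1 rose and 2 fell in HET and 1 rose in WT at 8 h, and the riser in both was Eef1e1, the synthetase scaffold (0.67 ± 0.19 and 0.82 ± 0.19). At 24 h against saline 5 fell in HET and 4 in WT. Eef1a1, the factor that brings aminoacyl-tRNA to the ribosome, had the highest level of all members, at 3380, 1800 and 2000 FPKM in saline, 1890, 1790 and 1820 at 8 h, 1670, 1310 and 1140 at 24 h and 1390, 1240 and 1020 at 48 h in HET. The WT libraries were at 2360, 2110 and 2200 FPKM in saline, 1820, 2010 and 2160 at 8 h, 1120, 1270 and 1620 at 24 h and 2130, 1430 and 1900 at 48 h. It was not called at 8 h and fell at 24 h against saline by 0.76 ± 0.23 in HET (adjusted p = 0.0130) and 0.75 ± 0.23 in WT (adjusted p = 0.0162), calls that each ended when either of 2 libraries was left out and that turned to 0.40 and 0.20 without enzyme genes in the scaling. Eef2, the translocase, was at 559, 478 and 553 FPKM in saline, 648, 588 and 540 at 8 h, 289, 323 and 287 at 24 h and 390, 307 and 266 at 48 h in HET. Its WT libraries had 591, 697 and 679 FPKM in saline, 578, 660 and 663 at 8 h, 300, 342 and 358 at 24 h and 675, 422 and 565 at 48 h. It was not called at 8 h and fell at 24 h by 0.82 ± 0.17 in HET and 0.97 ± 0.17 in WT; scaled without enzyme genes the HET change turned to 0.34. Eef1b2, a subunit of the exchange factor that recharges eEF1A, was at 1670, 894 and 1000 FPKM in saline, 680, 630 and 650 at 8 h, 590, 454 and 398 at 24 h and 436, 396 and 285 at 48 h in HET. WT values were 897, 975 and 996 FPKM in saline, 611, 684 and 818 at 8 h, 436, 440 and 636 at 24 h and 775, 507 and 717 at 48 h. It fell in HET at 8 h (-0.81 ± 0.24), a call that ended without the first HET saline library (adjusted p = 0.0581). It also fell in both genotypes at 24 h (-1.27 ± 0.24 and -0.94 ± 0.24), calls that ended under scaling without enzyme genes. Eef1g, its γ subunit, was at 556, 388 and 483 FPKM in saline, 306, 278 and 269 at 8 h, 225, 204 and 228 at 24 h and 215, 194 and 143 at 48 h in HET. The WT values were 339, 453 and 347 FPKM in saline, 257, 316 and 364 at 8 h, 243, 235 and 297 at 24 h and 369, 248 and 319 at 48 h. It too fell in HET at 8 h (-0.73 ± 0.19), with -0.28 ± 0.19 and adjusted p = 0.237 in WT. Eef1d, the δ subunit, fell at 24 h in HET, a call that ended without the first saline or the third 24 h library. It also ended in the fit to the compared groups alone and under scaling without enzyme genes.

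Elongation factor mRNAs and those of Eif3e, Eif3f and Eif3h belong in mammals to the class that begins with a terminal oligopyrimidine tract (TOP) and is translated under mTORC1 control. Among 8 such members (Eef1a1, Eef1b2, Eef1d, Eef1g, Eef2, Eif3e, Eif3f and Eif3h), none rose at 8 h and 3 fell in HET and 1 in WT, with median changes of -0.44 and -0.27. At 24 h against saline 7 fell in HET and 5 in WT, with medians of -0.67 and -0.53 on the authors' scaling, whereas all genes had 0.06 and 0.05. Sequence around the annotated starts of 4 members that fell or were not called at 8 h is given next (GRCm38.p6, 25 bases on each side, 5′ to 3′), with the longest pyrimidine run in capitals. They are chr9:78481700-78481749, minus strand (Eef1a1), chr10:81176606-81176655, plus strand (Eef2), chr7:108934390-108934439, plus strand (Eif3f) and chr7:28981864-28981913, minus strand (Eif3k).
Eef1a1: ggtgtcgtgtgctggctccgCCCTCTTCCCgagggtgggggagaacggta
Eef2: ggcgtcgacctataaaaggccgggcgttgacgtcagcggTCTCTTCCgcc
Eif3f: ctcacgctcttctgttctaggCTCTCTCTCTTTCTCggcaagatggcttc
Eif3k: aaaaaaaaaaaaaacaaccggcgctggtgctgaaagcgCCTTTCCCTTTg
A run of at least 8 pyrimidines between 10 bases before and 40 after the start was found in 17 of 67 member promoters (25.4%) and in 17.4% of all promoters. Whether the run went with the 8 h change was not tested. Holders that fell in both genotypes at 8 h were Eif3f and Eif3k. Tested holders not called at 8 h were Eef1a1, Eef2, Eif2ak4, Eif2b2, Eif2b5, Eif3l and Eif5a. Eif4e and Eef2k, which rose in both genotypes, held one, as did Eif3a, which rose in HET, and Eif4enif1, which rose in WT, while Eif1 and Eif5, which rose, did not. Of the 4 TOP members with an entry, Eef1a1, Eef2 and Eif3f held one and Eef1b2 did not. Annotated starts can be some bases off the starts used in pancreas.

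The ratio of 5 elongation genes (Eef1a1, Eef1b2, Eef1d, Eef1g and Eef2) to 4 scanning genes (Eif1, Eif1a, Eif1ax and Eif5), as summed FPKM within a library, is free of scaling between libraries and was chosen after the values were seen. In HET it was 20.9, 18.6 and 16.7 in saline, 4.38, 4.42 and 4.35 at 8 h, 7.91, 8.52 and 7.93 at 24 h and 11.4, 11 and 9.7 at 48 h. In WT it was 16.9, 17.6 and 17.2 in saline, 4.26, 4.66 and 4.47 at 8 h, 9.89, 10.8 and 11.3 at 24 h and 20.9, 15.1 and 18 at 48 h. The balance between these chosen genes thus shifted to the scanning side at 8 h in every library, and at 24 h and 48 h each HET library was below each WT library. Treatment and guide cannot be told apart for the shift from saline to 8 h, nor for that of the eIF3 and Eif4a1 to Eif4a2 ratios. Within 1 guide, every 48 h library was above every 8 h library in the ratio of elongation to scanning genes. Eef1a1 and Eif1 are the largest terms of the sums. Of the tested genes of both roles, Eif1ad, Eif1b, Eif5b and Eef1e1 are not in the ratio. At 8 h Eif1ad and Eef1e1 rose in both genotypes, Eif1b fell in HET and Eif5b was not called.

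**Figure D4:**
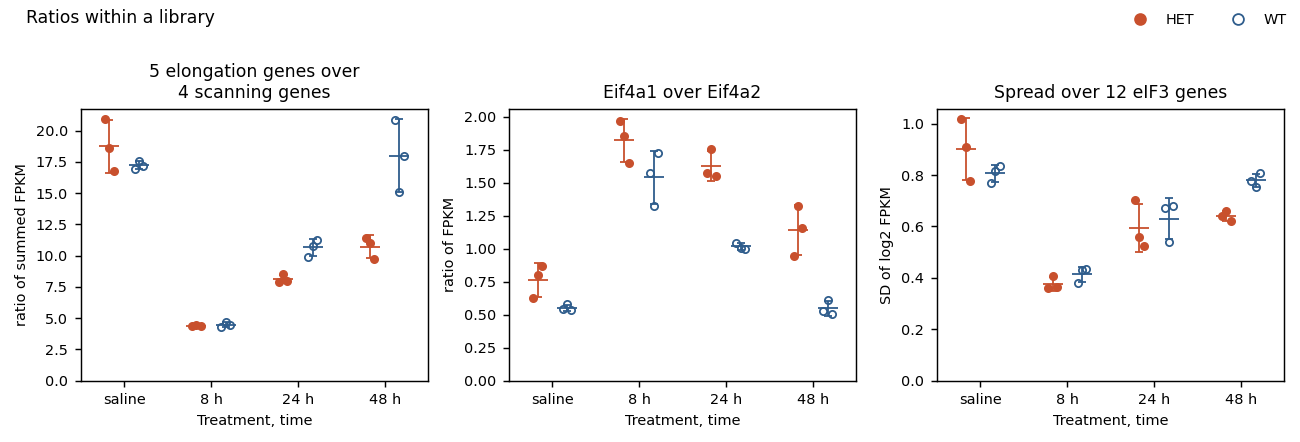
Ratios within each library in saline and at 8, 24 and 48 h (filled HET, open WT, bars mean and SD): summed FPKM of 5 elongation over 4 scanning genes (left), Eif4a1 over Eif4a2 (middle) and the SD of log2 FPKM over 12 eIF3 genes (right). The left and right ratios are lowest at 8 h in both genotypes, and at 48 h WT is near its saline values while HET lies between its 8 h and saline values.

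Eef2k, the kinase that inhibits eEF2, was at 4.27, 4.19 and 27.8 FPKM in saline, 32.2, 49.2 and 28.4 at 8 h, 3.41, 9.04 and 7.5 at 24 h and 8.14, 8.75 and 10.6 at 48 h in HET. The WT series was 17.5, 11.2 and 9.86 FPKM in saline, 34, 28.5 and 69.5 at 8 h, 4.33, 16.4 and 4.81 at 24 h and 11.3, 10.6 and 14.8 at 48 h. It rose at 8 h by 1.99 ± 0.55 in HET (adjusted p = 0.00502) and 1.63 ± 0.55 in WT (adjusted p = 0.0190), but its libraries spread widely. The WT call ended when any of 3 libraries was left out. The second row named EEF2K was at 2.17, 2.23 and 1.4 FPKM in saline, 0, 0 and 0.0216 at 8 h, 0, 0.131 and 0.295 at 24 h and 0, 0.38 and 0 at 48 h in HET. Its WT values were 2.54, 2.15 and 0.744 FPKM in saline, 0.262, 0.348 and 0.286 at 8 h, 0.2, 0 and 0 at 24 h and 0, 0.699 and 0.85 at 48 h. It fell at 8 h (-1.53 ± 0.24 and -1.05 ± 0.24) and was low afterwards. How the authors' counting divided reads between both rows is not known. Of the Argonaute genes, Ago2, the form that cuts target RNA, was at 0.271, 1.07 and 1.12 FPKM in saline, 11, 10.1 and 9.44 at 8 h, 1.71, 1.87 and 2.01 at 24 h and 1.88, 1.09 and 2.02 at 48 h in HET. WT animals had 1.06, 1.33 and 1.25 FPKM in saline, 11.2, 10.2 and 10.8 at 8 h, 1.9, 1.6 and 1.31 at 24 h and 1.8, 1.89 and 1.59 at 48 h. It rose by 2.65 ± 0.17 in HET and 2.41 ± 0.17 in WT at 8 h and fell by 2.09 ± 0.17 and 2.09 ± 0.17 from then to 48 h. Ago1 was at 1.35, 2.26 and 2.25 FPKM in saline, 1.28, 1.43 and 0.981 at 8 h, 2.08, 2.97 and 2.79 at 24 h and 3.07, 2.86 and 3.56 at 48 h in HET. WT libraries had 2.13, 2.49 and 2.05 FPKM in saline, 1.16, 1.06 and 1.17 at 8 h, 2.36, 2.74 and 2.4 at 24 h and 2.03, 3.15 and 2.51 at 48 h. It fell at 8 h (-0.39 ± 0.14 in HET, with overlapping ranges, and -0.60 ± 0.14 in WT) and rose by 48 h, opposite to Ago2. Ago3 was called nowhere. Ago4, at 0.3 to 2.6 FPKM, was called in WT at 24 h alone, with overlapping ranges.

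Between the genotypes, few members differed. In saline no member was called by limma (2.36% of all genes were, 1.15% higher and 1.21% lower), with 7 at an unadjusted p under 0.05 and a smallest adjusted p of 0.0840, that of Eif4ebp2 (-0.46 ± 0.14). At 8 h again none was called (0.218% of all genes were, 0.171% higher and 0.0467% lower), with 3 at an unadjusted p under 0.05. These tests compare levels at 8 h and do not show that they were alike. Whether the change from saline to 8 h differed between the genotypes was not tested.

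At 24 h, 2 members were higher in HET and none lower, where 6.50% of all genes were called, 3.50% higher. Eif6 was at 122, 101 and 102 FPKM in HET and 35.5, 48.7 and 53.7 FPKM in WT. The 3 HET libraries lay above the 3 WT libraries (24.8% of all genes did not overlap), by 1.23 ± 0.21 (adjusted p = 0.00195), and the call held in every alternative tried. Eif4ebp1 was at 74.9, 64.5 and 57.6 FPKM in HET and 27.5, 42.1 and 48 FPKM in WT. The groups did not overlap, and the difference was 0.76 ± 0.21 (adjusted p = 0.0360), a call that ended when any of 5 of the 6 libraries was left out (adjusted p up to 0.170). Against saline, Eif4ebp1 fell in WT at 24 h (-1.25 ± 0.21) and was not called in HET (-0.31 ± 0.21, adjusted p = 0.243). The test of that difference in response gave 0.94 ± 0.30 and adjusted p = 0.0964, the second smallest after Eif5 (0.76 ± 0.24, adjusted p = 0.0926). No member was called for a difference in the 24 h response (2.31% of all genes were, 1.07% higher and 1.24% lower), with 5 at an unadjusted p under 0.05. Without the third WT 24 h library 6 members were called for HET against WT at 24 h and 3 for the difference in response, and without the first HET saline library 1 for that difference.

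At 48 h, 1 member was higher and 5 were lower in HET, where 12.2% of all genes were called, 5.85% higher and 6.37% lower. Eef2 was at 390, 307 and 266 FPKM in HET and 675, 422 and 565 FPKM in WT. No HET library overlapped WT, as for 34.2% of all genes, with -0.78 ± 0.17 (adjusted p = 0.00684). Eif4a2 was at 60.3, 44.3 and 51.7 FPKM in HET and 91.9, 71.8 and 95.5 FPKM in WT, a difference of -0.72 ± 0.17 (adjusted p = 0.00905). Eef1g was at 215, 194 and 143 FPKM in HET and 369, 248 and 319 FPKM in WT, -0.76 ± 0.19 apart. Every HET library of these 3 genes was below every WT library. Eef1b2 had 436, 396 and 285 FPKM in HET and 775, 507 and 717 FPKM in WT (-0.84 ± 0.24, adjusted p = 0.0289). Eif4b had 53.4, 40.8 and 42.9 FPKM in HET and 68.7, 51.3 and 64.6 FPKM in WT, with 1 HET library inside the WT range (-0.42 ± 0.13). Eif6 was higher in HET, at 62.8, 66.6 and 56.1 FPKM in HET and 46.4, 41.2 and 30.2 FPKM in WT (0.66 ± 0.21, adjusted p = 0.0469). Unlike its 24 h call, this one ended when any of the 6 libraries was left out. It also ended with a pseudocount of 0.1, no filter or the compared groups alone (adjusted p up to 0.221).

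**Figure D5:**
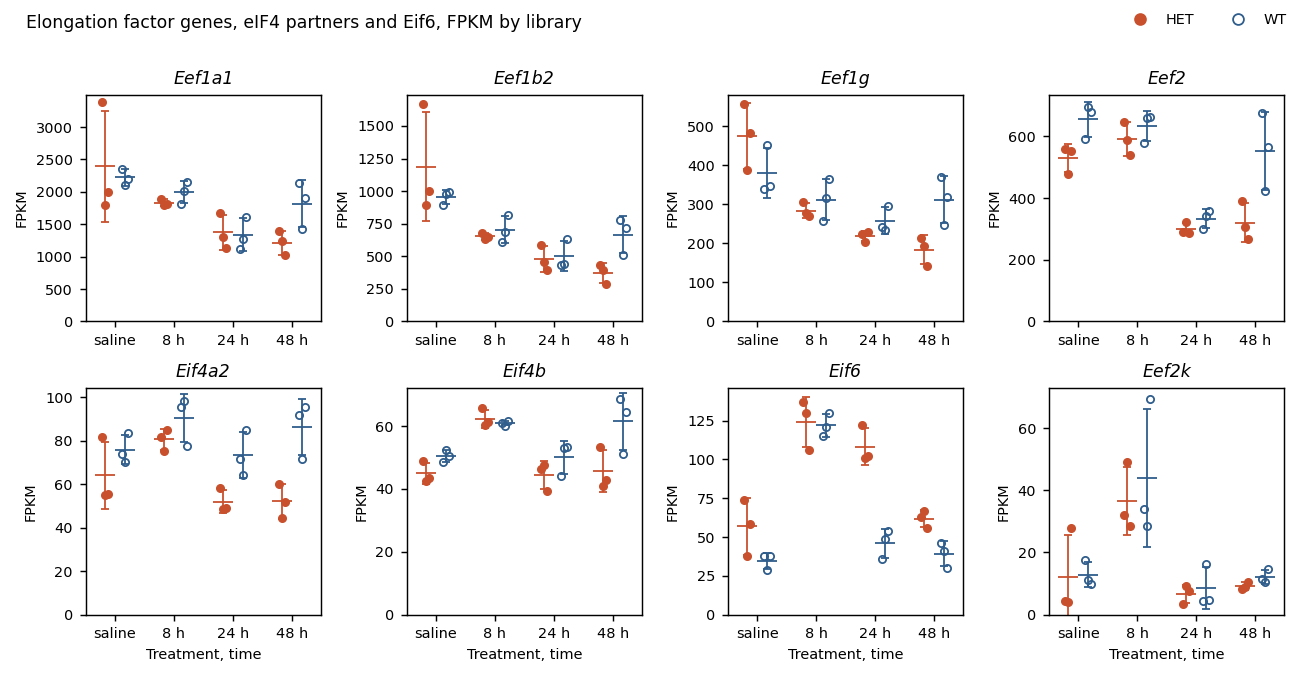
FPKM (linear axis from 0) of 4 elongation factor genes, 2 eIF4 genes, Eif6 and Eef2k in saline and at 8, 24 and 48 h. Each point is 1 animal (filled HET, open WT), with mean and SD. At 48 h the HET points of Eef1b2, Eef1g, Eef2 and Eif4a2 lie below the WT points and those of Eif6 above them; scaled without enzyme and Reg genes the 4 lower differences shrink and end as calls.

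None of these 6 calls at 48 h held in every alternative. Without the third HET 48 h library, which had the fewest acinar transcripts, 1 lower member was called. Without the first WT 48 h library 0 were called, without the third 1, without the second HET 48 h library 2 and without the second WT 48 h library 11, all lower in HET. Scaling without enzyme and Reg genes lifted the median of all genes to 0.39, ended the 5 lower calls and made 12 members higher and none lower in HET, with Eif4b at 0.05. Under median-of-ratios scaling the 6 calls stayed. The fit to the 48 h groups alone called 0. The median difference of the 62 members at 48 h was -0.19, against 0.03 for all genes, and that of the elongation factors -0.67. From 8 h to 48 h Eef2 fell by 0.90 ± 0.17 in HET and was not called in WT (-0.22 ± 0.17), and the 6 elongation genes fell in HET while 1, Eef1e1, fell in WT; without enzyme genes in the scaling the HET change of Eef2 turned to 0.066, with those of Eef1a1, Eef1b2, Eef1d and Eef1g above 0 as well. The test of that difference called no member (0.723% of all genes were, 0.156% higher and 0.568% lower), with 6 at an unadjusted p under 0.05. Eef2 came nearest at -0.68 ± 0.24 (adjusted p = 0.219).

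Regulators and partners of the factors were read from a list of 33 genes outside the naming rule. At 8 h against saline 10 rose and 8 fell in HET, and 11 rose and 9 fell in WT. That is 54.5% called in HET, near the 55.2% of all genes, and 60.6% in WT, against 51.0% of all genes. The 3 smallest p in both genotypes were those of Sesn2, a stress-induced inhibitor of mTORC1 (4.12 ± 0.26 in HET and 3.93 ± 0.26 in WT), Tsc1, a subunit of the complex that restrains mTORC1 (1.37 ± 0.12 and 1.17 ± 0.12), and Pdcd4, an inhibitor of eIF4A, which fell (-2.41 ± 0.23 and -2.54 ± 0.23). Ppp1r15b, a subunit of the phosphatase that resets eIF2α, rose (1.17 ± 0.12 in HET and 1.08 ± 0.12 in WT), as did Ppp1r15a (GADD34), its stress-induced relative (2.54 ± 0.30 and 2.73 ± 0.30). Ddit4, another stress-induced inhibitor of mTORC1, had the second largest rise, at 3.51 ± 0.39 in HET and 3.23 ± 0.39 in WT. At 24 h against saline 5 rose and 11 fell in HET, and 4 rose and 14 fell in WT on the authors' scaling (48.5% and 54.5% called, against 43.8% and 39.2% of all genes). At 48 h against 8 h 3 rose and 19 fell in HET and 3 rose and 16 fell in WT (66.7% and 57.6%, against 52.0% and 50.0%). The smallest p at 24 h were those of Pdcd4 (-2.12 ± 0.23), Paip2b (-1.73 ± 0.21), Deptor (-1.41 ± 0.18) and Mknk1 (-1.39 ± 0.22) in HET and Deptor (-1.39 ± 0.18), Paip2b (-1.49 ± 0.21), Mknk1 (-1.29 ± 0.22) and Rheb (-0.91 ± 0.17) in WT. From 8 h to 48 h they were those of Ppp1r15b (-2.07 ± 0.12), Rheb (-2.19 ± 0.17), Sesn2 (-3.05 ± 0.26) and Etf1 (-1.64 ± 0.14) in HET and Ppp1r15b (-1.67 ± 0.12), Sesn2 (-3.22 ± 0.26), Etf1 (-1.64 ± 0.14) and Ppp1r15a (-3.33 ± 0.30) in WT. Etf1 encodes the release factor eRF1, and Rheb the GTPase that activates mTORC1.

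Pdcd4 was also lower in HET at 24 h (-1.92 ± 0.23, adjusted p = 2.55e-04) and at 48 h (-1.21 ± 0.23, adjusted p = 0.00270), and it was the partner whose 24 h response differed between the genotypes (-1.61 ± 0.33, adjusted p = 0.0155). Mknk1, a kinase of eIF4E, was lower in HET in saline (-0.90 ± 0.22), at 24 h (-1.01 ± 0.22) and at 48 h (-1.05 ± 0.22), and Deptor, a subunit that inhibits mTOR, likewise (-0.68 ± 0.18, -0.69 ± 0.18 and -1.05 ± 0.18). At 48 h the smallest adjusted p was that of Paip2b, which competes with eIF4G for poly(A)-binding protein (-1.31 ± 0.21, adjusted p = 6.16e-04). No partner was higher in HET in any of the 4 comparisons, with 2, 0, 3 and 7 lower in saline and at 8, 24 and 48 h. These are 6.06%, 0%, 9.09% and 21.2% of the 33, where 2.36%, 0.218%, 6.50% and 12.2% of all genes were called in either direction. The acinar sums given above were lower in HET at 24 h and 48 h, where the macrophage sums of the genotypes overlapped. Adipocyte, macrophage, fibroblast and islet sums differed between the genotypes in saline. The part of these sums was not tested.

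Called in no comparison were 8 of the 62 tested members: Eif2a, Eif2ak3, Eif2ak4, Eif3e, Eif3l, Eif4ebp3, Eif4g3 and Ago3. Of these, Eif3l stayed between 33.6 and 50.6 FPKM in all 24 libraries.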

How the data were processed

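Poly(A) RNA of whole pancreas was sequenced on a Genome Analyzer IIx, per the labels' protocols. The authors deposited FPKM per gene for 24 libraries. The tools were Cuffnorm, Cufflinks 2.0.2, Bowtie and CASAVA 1.8, with build mm9, per the submitters' processing notes. That the values are FPKM was taken from those tools and from the values. The kit is not stated to mark strand, so overlapping and antisense genes cannot be told apart. From the deposited values, limma 3.58.1 (R 4.3.3) fitted 8 group means of log2(FPKM + 1) to all 24 libraries with trended, robust moderation, over genes that reached 1 FPKM in 3 or more libraries. Benjamini-Hochberg adjustment ran over all genes of a comparison, with a threshold of 0.05. A group listed at 0 in all its libraries while another had at least 100 FPKM in each was treated as missing (22 genes, no member). The fit was checked on simulated data. Replicates are separate animals. Members, gene lists and tests were chosen with earlier results of these data known. Values in every library are given for up to 6 called members per direction and comparison with the smallest p, and for key nodes of each step. One item of the acinar marker list is not reported here. Alternatives, read for the members and not for the partners, were a pseudocount of 0.1, no filter, 2 other scalings, zeros kept, the compared groups alone and each library left out.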

Additional observations from a re-analysis of the deposited data

How the results depend on the processing

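Leaving out each library in turn gave 35 to 40 members called at 8 h against saline in HET and 28 to 34 in WT, 22 to 31 in HET and 19 to 25 in WT at 24 h against saline, and in the comparison of 48 h with 8 h 36 to 41 in HET and 33 to 35 in WT. For HET against WT the range was 0 to 1 in saline, 1 to 6 for 24 h and 0 to 11 for 48 h, with 0 throughout at 8 h, and for the differences in response 0 to 3 at 24 h and 0 from 8 h to 48 h. Of the members called at 8 h, 32 of 38 in HET and 27 of 32 in WT held without any 1 library. Without a filter on low values, 1 member was called for HET against WT at 24 h, and the fit to the compared groups alone called 1 there, 0 at 48 h and 16 for 24 h against saline in HET. A total taken without enzyme and Reg genes for scaling gave 12 for HET against WT at 48 h, 46 in HET and 36 in WT for 24 h against saline, and 26 in HET for 48 h against 8 h; it lifted the median of all genes, as given above, and the cause was not tested. Under that scaling the log2 change turned positive for Eif4b 0.050 in HET against WT at 48 h. In WT at 24 h against saline it was Eif4ebp2 0.093, Eef1b2 0.0023, Eif5b 0.084, Eif2b4 0.054, Eif2ak1 0.23, Eif3f 0.45, Eef1a1 0.20, Eif3b 0.40, Eif3g 0.44, Eef1g 0.40 and Eif5a 0.079. In HET at 24 h against saline it was Eif1b 0.69, Eif4ebp2 0.62, Eif3h 0.60, Eif5b 0.38, Eif3j 0.38, Eif3i 0.33, Eif2b4 0.24, Eif2ak1 0.39, Eif3f 0.77, Eef2 0.34, Eef1a1 0.40, Eif4g1 0.32, Eif3k 0.0018, Eef1d 0.57, Eef1g 0.060 and Eif5a 0.57. At 48 h against 8 h it was Eif5b 0.036 and Eif2d 0.10 in WT, and Eif4g2 0.35, Eif4a2 0.32, Eef1b2 0.13, Eif3m 0.34, Eif3i 0.42, Eef2 0.066, Eef1a1 0.36, Eif4h 0.29, Eef1d 0.42, Eif4b 0.50, Eif1ax 0.091 and Eef1g 0.32 in HET. No paired analysis was possible because the replicate numbers do not tie animals across groups in the labels. FPKM keep no depth, so no counting error could be given.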
